A study of Homo sapiens with 66 samples.

Results

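The Mediator subunit genes are 32 genes whose products make up the Mediator complex and its kinase module. They were taken as the rows of the raw count table whose Ensembl identifiers map, in GENCODE release 29, to a fixed list of 32 symbols. All 32 were present among the 13331 genes of the table, and all 32 passed the filter on low counts under both scalings used. By their place in the complex 11 belong to the head (MED6, MED8, MED11, MED17, MED18, MED20, MED22, MED27, MED28, MED29, MED30), 9 to the middle (MED1, MED4, MED7, MED9, MED10, MED19, MED21, MED26, MED31), 1 is the scaffold MED14, 5 belong to the tail (MED15, MED16, MED23, MED24, MED25) and 6 to the kinase module (CDK8, CDK19, CCNC, MED12, MED13, MED13L).

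Mediator carries signals from DNA-bound transcription factors to RNA polymerase II at promoters. Its head and middle contact the polymerase, MED14 runs through the complex and holds its parts together, the tail is a main landing place for activators, and the kinase module (CDK8 or CDK19 with cyclin C, MED12 and MED13 or MED13L) binds the core reversibly. CDK8 and CDK19, and MED13 and MED13L, are pairs of paralogs that take the same place in the kinase module. The question put to the data was whether cells that lose 1 subunit change the mRNA of the others.

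RNA was measured by 3' mRNA sequencing (QuantSeq, which reads the ends of polyadenylated transcripts) in 66 libraries of KBM7, a chronic myeloid leukaemia cell line, with 3 libraries in each of 22 groups. Lines carrying the genotype MED1-dTAG, MED6-dTAG, MED10-dTAG, MED12-dTAG, MED14-dTAG, MED26-dTAG, MED28-dTAG, MED31-dTAG or CDK9-dTAG received DMSO or 500 nM dTAG7 for 6 h, and wild-type cells were given, for the same time, DMSO, THAL-SNS-032 at 250 nM, dBET6 at 100 nM or dTAG7 at 500 nM. The dTAG is a degron tag through which dTAG7 brings the tagged protein to an E3 ubiquitin ligase, THAL-SNS-032 is a degrader of CDK9, a kinase that releases paused polymerase, and dBET6 one of the BET family of acetyl-lysine readers. The labels do not say whether a line is 1 clone or how the tag was inserted, and protein levels were not analysed here. The 3 libraries of a group came from triplicate wells. The p-values therefore rest on a spread between wells that may be technical.

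Libraries held 439261 to 4337368 endogenous counts, and spike-in RNA added in equal amounts to each lysate made up 0.626 to 7.11% of counts. Of the markers looked for, the table held 12 of 12 of blood and leukaemia cells, 5 of 6 of T and B cells, 2 of 4 of epithelium (KRT8 and KRT18), 1 of 3 of endothelium (PECAM1) and 0 of 4 of fibroblasts. Among 66 libraries 5 stood apart from both others of their group. They were MED12 DMSO replicate B, MED12 dTAG7 replicate C, MED26 DMSO replicate A, MED31 dTAG7 replicate A and MED6 dTAG7 replicate A. Calls of single members on the spike-in scale, described below, that rest on them are also given without them. Calls under TMM, the other scaling, were not refitted without them. Levels are in CPM, a gene's count as a share of the library total, on the spike-in scale, in which that total is set by the spike-ins, and fold changes are log2 values ± SE on that scale unless TMM is named. TMM scaling instead removes a shift shared by most genes. A gene was called when edgeR's quasi-likelihood test gave an adjusted p under 0.05 over all genes tested. Less RNA per cell and fewer cells per lysate cannot be told apart on the spike-in scale.

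After dTAG7 the median log2 change of the subunit genes ran from -0.62 in the MED14 line to 0.12 in the MED12 line, beside -0.69 and 0.06 for all genes in the same lines. The head subunit gene MED11 fell in 4 of the 8 Mediator lines (-1.27 to -2.07), more than any other member in each of them. CDK19 was the member called higher in the most lines, 3 on the spike-in scale (0.44 to 0.69) and 5 under TMM. Among the other members of the targeted subunit's own module, 1 rise was called on the spike-in scale in 57 cases, and 2 under TMM. In the lines that gave these cases, 0% (MED1) to 2.71% (MED10) of all genes were called higher on the spike-in scale. Under TMM the shares ran from 0% (MED1) to 8.06% (MED10).

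The bases upstream of MED11 and CDK19 are shown because these genes carry the largest fall and the most frequent rise. MED11 (ENSG00000161920) lies on GRCh38 at chr17:4731428-4733610 on the plus strand. The 250 bases before its annotated start, at chr17:4731178-4731427 and read on the plus strand, held none of the 5 motifs searched.
MED11: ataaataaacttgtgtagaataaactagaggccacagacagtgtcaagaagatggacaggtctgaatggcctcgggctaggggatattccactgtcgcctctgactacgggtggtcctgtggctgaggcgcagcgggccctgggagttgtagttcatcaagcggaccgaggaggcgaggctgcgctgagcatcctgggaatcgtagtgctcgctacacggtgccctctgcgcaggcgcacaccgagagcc
CDK19 (ENSG00000155111) lies at chr6:110609978-110815958 on the minus strand. The 147 bases of its RefSeq promoter window that lie outside the GENCODE gene, at chr6:110815959-110816105 and read on the minus strand, held 2 CCAAT boxes, in capitals, that begin 59 and 52 bases before the GENCODE start.
CDK19: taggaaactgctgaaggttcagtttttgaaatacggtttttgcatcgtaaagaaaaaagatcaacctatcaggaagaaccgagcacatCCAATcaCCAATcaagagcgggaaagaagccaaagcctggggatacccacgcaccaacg
Both stretches come from the RefSeq windows of GRCh38.p14. For CDK19 3 starts were listed, and the stretch shown belongs to 1 of them. Its 147 bases are fewer than the 250 of a whole window, so its hits cannot be set against the window shares below. The motifs were searched on both strands as exact letters in the bases before the start. Among all 35116 windows of 250 bases CCAAT was present in 32.01%, the GC box GGGCGG in 42.64%, the ETS core CCGGAA in 14.53%, TATAAA in 10.72% and the E-box CACGTG in 6.345%. A window was given for 24 of the 32 members, 29 windows in all, and the shares there were 34.48% for CCAAT, 58.62% for GGGCGG, 31.03% for CCGGAA, 6.897% for TATAAA and 6.897% for CACGTG.

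Counted line by line, members called lower with dTAG7 were 23 of 32 in the MED14 line, 9 in the MED6 line, 6 in the MED10 line and 1 in the MED26 line. Over all genes tested the shares called lower in these lines were 63.3%, 18.4%, 19% and 2.88%. Members called higher were 2 in the MED12 line, 1 in the MED10 line and 1 in the MED28 line, where 1.57%, 2.71% and 0.775% of all genes were called higher. The median log2 change of the members was -0.62 in the MED14 line, -0.25 in the MED6 line and -0.12 in the MED10 line, beside -0.69, -0.27 and -0.19 for all genes.

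No member was called by edgeR in the MED1 line, in the MED31 line or in wild-type cells with dTAG7, and DESeq2 called 0 in each as well. At an unadjusted p under 0.05 edgeR had 1 higher member in the MED1 line, 1 lower and 1 higher in the MED31 line and 1 higher in wild-type cells. The higher member was CDK19 in all 3 (0.42 ± 0.14, 0.27 ± 0.13 and 0.28 ± 0.14). In the MED1 line and in wild-type cells 0% of all genes were called, and in the MED31 line 3.11%.

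Leaving out MED6 dTAG7 replicate A took the count in the MED6 line from 9 to 3, and leaving out DMSO replicate A, B or C gave 4, 4 and 5. CCNC was the 1 MED6-line call that remained without each library in turn. In the MED10 line the count of 7 members called either way fell to between 2 and 5 without single libraries, the lowest without DMSO replicate B. Both MED12-line calls were lost without DMSO replicate B, and 1 of them without any single dTAG7 library. In the MED14 line the count ran from 21 to 23.

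Under TMM 5 members were lower and 5 higher in the MED14 line, 2 and 2 in the MED10 line, 1 and 1 in the MED6 line, 1 and 2 in the MED28 line, 1 and 0 in the MED26 line and 0 and 3 in the MED12 line. The shares of all genes called either way under TMM were 30%, 18.1%, 6.55%, 6.43%, 2.37% and 8.76% in the same order. Most of the members lowered in the MED14 line thus fell with the transcripts at large, and the direction of 9 of these 23 turned under TMM.

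**Figure D1:**
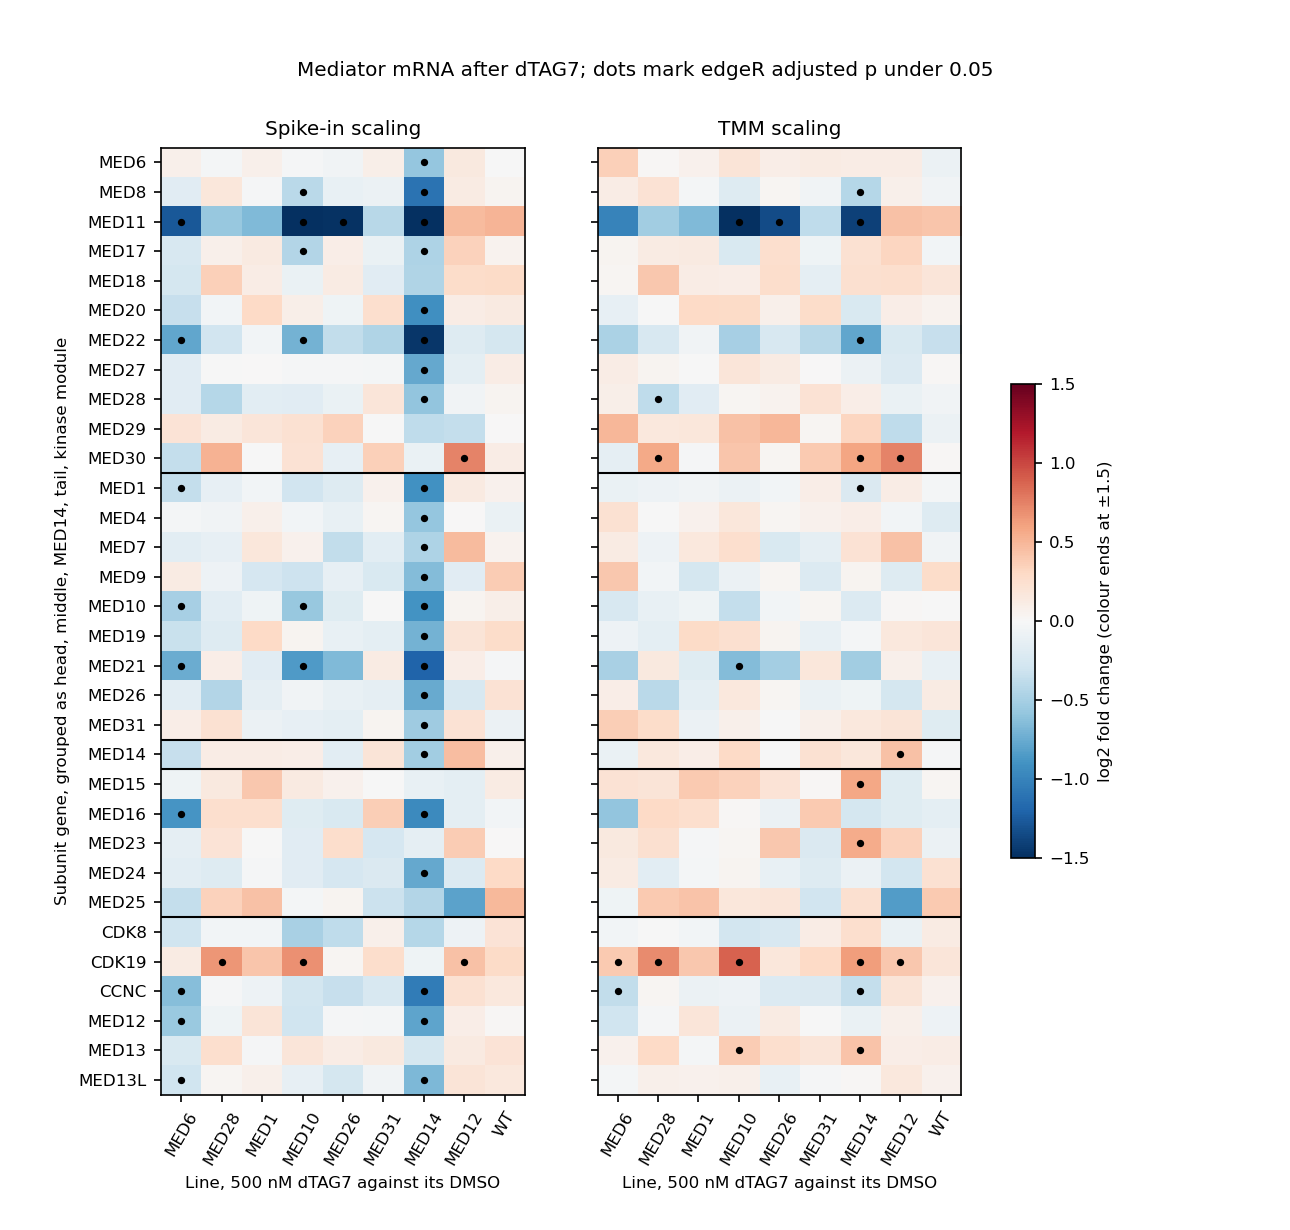
Log2 fold change of each of the 32 subunit genes (rows, in module order: head, middle, MED14, tail, kinase module) with 500 nM dTAG7 against DMSO of the same line (columns, 8 Mediator lines and wild-type cells, WT), on the spike-in scale at left and under TMM at right; dots mark edgeR adjusted p under 0.05. The MED14 column is blue for nearly all genes at left and mixed at right, while MED11 is blue and CDK19 red in several lines on both sides.

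The genes of the 8 tagged subunits are given first, as mRNA of the targeted gene itself. dTAG7 acts on the tagged protein, so these levels do not measure degradation. MED14 mRNA was at 79.8, 88 and 70.4 CPM in wild-type cells with DMSO, at 30.1, 32.8 and 33.1 CPM in its tagged line with DMSO and at 22.3, 20.6 and 23.4 CPM there with dTAG7. MED10 mRNA was at 56.3, 54.7 and 62.5 CPM in wild-type cells, at 36.2, 35.9 and 33.5 CPM in its line with DMSO and at 24.3, 24.7 and 22.4 CPM with dTAG7. In both genes the 3 sets of libraries did not overlap on this scale, wild-type cells lying highest and the tagged line with dTAG7 lowest. With dTAG7 MED10 fell by 0.57 ± 0.18 (adjusted p = 0.0172), a call lost under TMM (-0.36, adjusted p = 0.064) and without DMSO replicate B or dTAG7 replicate C (adjusted p = 0.0559 and 0.0845).

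MED28 mRNA stood at 167, 196 and 161 CPM in wild-type cells, at 84.3, 66.9 and 72.2 CPM in its line with DMSO and at 61.7, 42.7 and 62.8 CPM with dTAG7. Its fall with dTAG7 was called under TMM (-0.38 ± 0.10, adjusted p = 0.00939) and not on the spike-in scale (-0.42 ± 0.14, adjusted p = 0.0684). MED28 has 8 named pseudogenes in GENCODE, none of them in the count table, so reads shared with them cannot be followed. MED26 mRNA was at 19.8, 17.6 and 12.8 CPM in wild-type cells and higher in its tagged line, at 32.6, 26.7 and 22.4 CPM with DMSO and 24.9, 24.7 and 25.4 CPM with dTAG7.

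MED1, MED6, MED12 and MED31 mRNA were called neither at baseline nor with dTAG7 in their own lines. MED6 lay at 48.1, 51.9 and 39.6 CPM in wild-type cells, 42.7, 43.8 and 44.7 CPM in its line with DMSO and 43.9, 51.7 and 42.8 CPM with dTAG7, a range in which all 3 groups overlap. MED31 lay at 24.9, 32.8 and 25.2 CPM in wild-type cells, 22.5, 20.1 and 22.1 CPM in its line and 21.5, 22.4 and 22.4 CPM with dTAG7. Over the 8 targeted genes 2 were called lower with dTAG7 in their own line on the spike-in scale (MED10 and MED14) and 1 under TMM (MED28). The MED14 call was -0.52 ± 0.21 (adjusted p = 0.0245) and turned to 0.17 under TMM, without a call. It was also lost without DMSO replicate B, DMSO replicate C, dTAG7 replicate A or dTAG7 replicate B (adjusted p = 0.0606, 0.0572, 0.0611 and 0.0581).

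**Figure D2:**
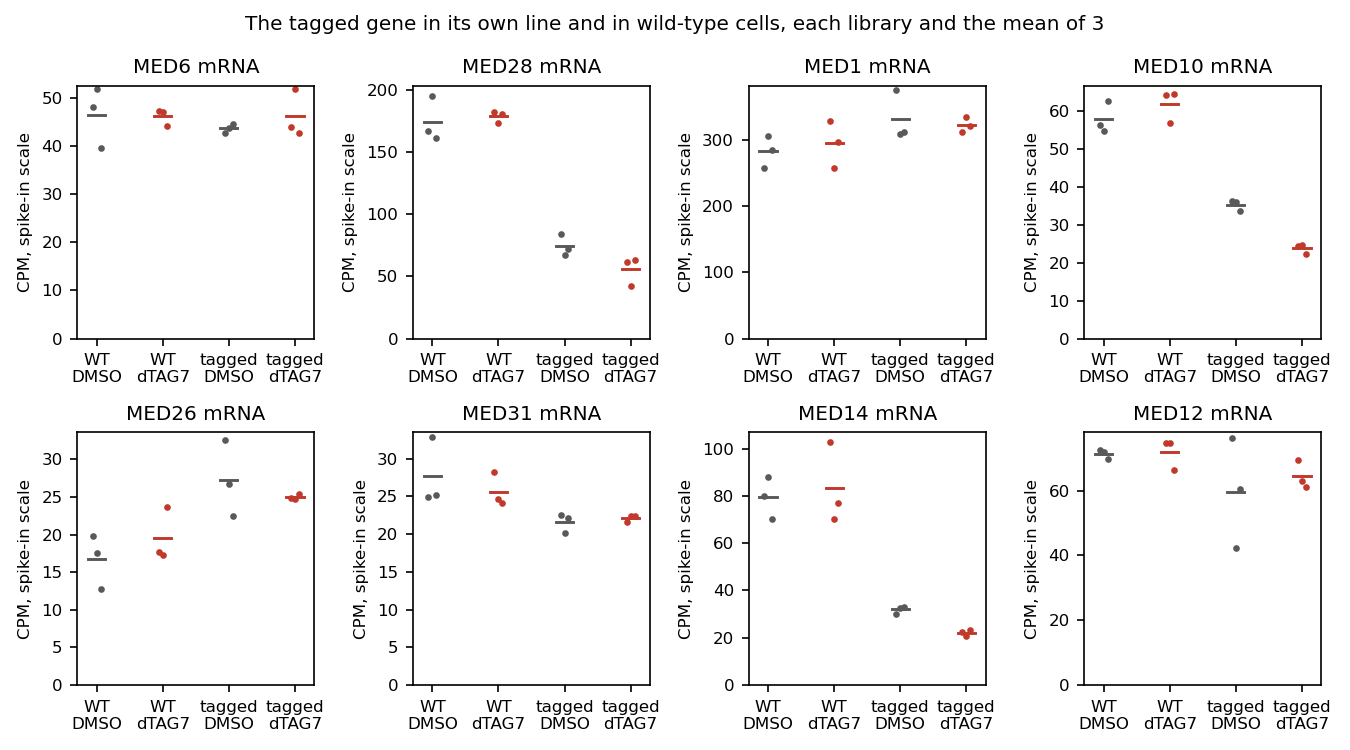
mRNA of each of the 8 tagged subunits (CPM, spike-in scale) in wild-type cells and in its own tagged line, with DMSO (grey) or 500 nM dTAG7 (red); points are libraries and bars the mean of 3. MED14, MED28 and MED10 lie lower in their tagged lines, MED26 higher, and MED6, MED1, MED31 and MED12 overlap or nearly overlap with wild-type cells.

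Among head genes MED11, whose product pairs with MED22 in the core of the head, had the largest falls. In the MED10 line it was at 4.07, 6.73 and 7.9 CPM with DMSO and at 0.727, 1.54 and 2.91 CPM with dTAG7 (51 and 15 counts in all). In the MED14 line it went from 4.3, 5.59 and 3.82 CPM to 0.65, 0.527 and 1.86 CPM (48 and 11 counts). In the MED26 line it went from 8.45, 8.79 and 5.15 CPM to 3.26, 2.98 and 0.998 CPM (63 and 23 counts). Treated and DMSO libraries did not overlap in any of these lines.

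MED11 changed by -1.80 ± 0.46 in the MED10 line (edgeR adjusted p = 0.00243), -2.07 ± 0.49 in the MED14 line (adjusted p = 0.000241), -1.49 ± 0.40 in the MED26 line (adjusted p = 0.0251) and -1.27 ± 0.39 in the MED6 line (adjusted p = 0.0176). Under TMM the MED10, MED14 and MED26 calls held (-1.59, -1.40 and -1.34), and the MED6 change was -1.0 with an adjusted p of 0.0943. In the MED6 line the fall no longer passed the test when dTAG7 replicate A (-0.96, adjusted p = 0.164), DMSO replicate A (adjusted p = 0.0678) or DMSO replicate C (adjusted p = 0.0608) was left out. The MED26 call was lost without any of 5 of its 6 libraries, DMSO replicate A among them (-1.39, adjusted p = 0.0929), while those in the MED10 and MED14 lines remained without each library in turn.

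In wild-type cells MED11 was at 5.46, 9.51 and 6.55 CPM with DMSO and at 8.36, 11.8 and 9.7 CPM with dTAG7, so it did not fall there (0.51 ± 0.33). Set against that wild-type change, its dTAG7 effect was lower by 2.58 ± 0.59 in the MED14 line, 2.30 ± 0.56 in the MED10 line, 1.99 ± 0.52 in the MED26 line and 1.77 ± 0.51 in the MED6 line (edgeR adjusted p = 0.000223, 0.00284, 0.0342 and 0.0186). The shares of all genes called lower in these 4 differences were 57.1%, 14.1%, 1.31% and 10.9%. With TMM the MED14 and MED10 differences were called (-1.82 and -2.01), beside 10.3% and 4.81% of all genes. MED11 had 936 counts over all 66 libraries, so each of its values carries a large counting error. Its 3' end lies within 1000 bases of that of CXCL16 on the other strand, and CXCL16 changed by -2.35 ± 0.84 in the MED14 line (adjusted p = 0.0126), -3.81 ± 1.54 in the MED10 line (adjusted p = 0.069) and 0.95 ± 0.74 in the MED26 line (adjusted p = 0.53). Whether reads were counted by strand is not given in the sources used here, and the part of CXCL16 in the MED11 counts was not tested.

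MED22 (chr9:133338323-133348131, minus strand), the head partner of MED11, was at 20, 16 and 17.5 CPM with DMSO and 6.07, 6.32 and 6.92 CPM with dTAG7 in the MED14 line. It fell there by 1.46 ± 0.25 (adjusted p = 1.39e-06; TMM -0.78 ± 0.25), and by 0.77 ± 0.23 in the MED6 line and 0.71 ± 0.23 in the MED10 line, where TMM made no call. The MED6-line call of MED22 was lost without DMSO replicate A or dTAG7 replicate B (adjusted p = 0.0554 and 0.0547) and the MED10-line call without replicate A or B of either treatment (adjusted p = 0.0836 to 0.0967). MED8, another head gene, fell by 1.11 ± 0.16 in the MED14 line and 0.40 ± 0.15 in the MED10 line, and TMM called the MED14-line value alone (-0.43 ± 0.15). The MED10-line call of MED8 was lost in each of the 6 fits that left out 1 of its libraries (adjusted p = 0.05 to 0.121). MED17, which braces the head, fell by 0.46 ± 0.17 in the MED14 line and 0.43 ± 0.16 in the MED10 line, but under TMM neither was called, at 0.23 and -0.23. The MED10-line call of MED17 was lost without any library but dTAG7 replicate B (adjusted p = 0.067 to 0.194), and the MED14-line call without DMSO replicate B (-0.37, adjusted p = 0.0866).

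MED30 differed from the other head genes. In the MED28 line it was at 78.8, 66.5 and 61.7 CPM with DMSO and 97.3, 109 and 90.2 CPM with dTAG7, with no overlap (0.53 ± 0.22, adjusted p = 0.177; TMM 0.57 ± 0.17, adjusted p = 0.0307). In the MED12 line it was at 79.5, 33.3 and 66.2 CPM and then at 95.7, 89.9 and 114 CPM, called on the spike-in scale (0.75 ± 0.21, adjusted p = 0.0265) and under TMM (0.74 ± 0.17). The low library there is DMSO replicate B, and without it the change on the spike-in scale was 0.46 (adjusted p = 0.295). Without dTAG7 replicate C it was 0.63 (adjusted p = 0.157). The TMM call was not refitted without these libraries. In the MED14 line the change was -0.10 ± 0.22 on the spike-in scale and 0.59 ± 0.18 under TMM (adjusted p = 0.00819), so its direction depends on the scale. Head genes called in none of the 8 Mediator lines on either scale were MED18 and MED29.

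Among middle genes MED21 (chr12:27022546-27066343, plus strand), whose product pairs with MED7 in a hinge of the middle, fell most. In the MED14 line it was at 13.2, 16.3 and 17.5 CPM with DMSO and 6.29, 8.43 and 6.39 CPM with dTAG7. In the MED10 line it went from 16.3, 20.9 and 21.5 CPM to 14.2, 10.3 and 8.72 CPM. It fell by 1.20 ± 0.27, by 0.85 ± 0.26 and, in the MED6 line, by 0.74 ± 0.26, of which TMM called the MED10 value (-0.64 ± 0.23, adjusted p = 0.04). Leaving out DMSO replicate B, DMSO replicate C or dTAG7 replicate C ended the MED10-line call (adjusted p = 0.0511, 0.0589 and 0.121). The MED6 call was lost without any DMSO library (adjusted p = 0.0512 to 0.237) or without dTAG7 replicate A (-0.40, adjusted p = 0.409).

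MED10 fell in the MED6 line (-0.50 ± 0.16) and the MED14 line (-0.89 ± 0.16) as well as in its own, and MED1, the subunit known for binding nuclear receptors, fell in the MED14 line (-0.90 ± 0.13) and the MED6 line (-0.36 ± 0.13). MED1 in the MED14 line was at 248, 266 and 265 CPM with DMSO and 127, 152 and 140 CPM with dTAG7. The MED6-line value of MED10 was -0.29 (adjusted p = 0.289) without dTAG7 replicate A and -0.24 (adjusted p = 0.23) under TMM, its call was also lost without DMSO replicate B (adjusted p = 0.11), and TMM did not call its MED14-line value either (-0.21, adjusted p = 0.217). For MED1 TMM called only the MED14-line value (-0.22 ± 0.08), and the MED6-line call of MED1 was lost without any DMSO library (adjusted p = 0.0827 to 0.112) or without dTAG7 replicate A (-0.19, adjusted p = 0.431). All 9 middle genes fell in the MED14 line (median -0.71), beside 8 of 11 head genes (median -0.59), 2 of 5 tail genes (median -0.44) and 3 of 6 kinase module genes (median -0.55), where 63.3% of all genes fell. Under TMM 1 middle, 3 head, 0 tail and 1 kinase module genes were lower and 1 head, 2 tail and 2 kinase module genes higher there, so the order of the modules did not hold, and the difference between modules was not tested. With MED27 to MED30 counted in the tail and MED19 in the head, as another scheme does, the counts were 7 of 8 head, 8 of 8 middle and 4 of 9 tail genes.

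Of the tail genes, MED16 fell in the MED14 line (-0.95 ± 0.30) and the MED6 line (-0.88 ± 0.29), and MED24 in the MED14 line (-0.77 ± 0.18). In the MED6 line MED16 was at 8.17, 10.4 and 9.4 CPM with DMSO and 6.55, 3.8 and 4.68 CPM with dTAG7, without overlap, and TMM called neither value. The MED6-line call of MED16 was lost without DMSO replicate B, DMSO replicate C or dTAG7 replicate B (adjusted p = 0.0892, 0.0704 and 0.0851). MED15 and MED23, which bind activators, were called higher in the MED14 line under TMM (0.58 ± 0.20 and 0.56 ± 0.17), while their spike-in values there were -0.11 and -0.13 without a call. MED25 was called in no dTAG7 comparison of a Mediator line.

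Of the kinase module, CDK19 was called higher in the MED10 line (0.69 ± 0.14, adjusted p = 9.98e-05), the MED28 line (0.66 ± 0.14, adjusted p = 0.000809) and the MED12 line (0.44 ± 0.13, adjusted p = 0.0297). It was at 50.4, 50.5 and 50.6 CPM in the MED10 line with DMSO and at 74.5, 90.9 and 79.7 CPM with dTAG7. In the MED28 line it went from 51.6, 48.5 and 54.2 CPM to 82.4, 84.7 and 77.7 CPM, and in the MED12 line from 79.5, 59.4 and 76.5 CPM to 116, 95.7 and 83.9 CPM. The groups did not overlap in any of the 3 lines.

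Both the MED10 and the MED28 call held without each library in turn, at 0.61 to 0.75 and 0.62 to 0.71. The MED12 call was lost without DMSO replicate B (0.32, adjusted p = 0.24), without dTAG7 replicate A (0.32, adjusted p = 0.224) or without dTAG7 replicate B (0.45, adjusted p = 0.0628). Under TMM CDK19 was also called higher in the MED14 line (0.62 ± 0.12) and the MED6 line (0.40 ± 0.12). The TMM calls of the MED6 and MED12 lines were not refitted without the libraries that stood apart. On the spike-in scale the MED14 value was -0.06 ± 0.13, from 51.6, 61 and 47.5 CPM to 49.9, 51.1 and 52.7 CPM. While most transcripts of the MED14 line were lower, CDK19 mRNA per spike-in stayed within the range of its DMSO libraries.

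In the MED1 and MED31 lines every dTAG7 library of CDK19 lay above every DMSO library, without a call. The values were 69.1, 61.2 and 74 against 53.7, 54.6 and 43.2 CPM and 73.4, 70.4 and 72.6 against 51.6, 61.9 and 65.6 CPM. Such separation was not particular to CDK19. In the MED1 line 6 members lay wholly higher with dTAG7 and 1 wholly lower, and in the MED31 line 2 and 2. The share of all genes separated in this way was not counted, so these counts do not set the members apart from genes at large. In wild-type cells, where no tagged protein is present, CDK19 was at 43.3, 48 and 47.8 CPM with DMSO and 64.1, 46.3 and 59 CPM with dTAG7 (0.28 ± 0.14, adjusted p = 0.992), and the groups overlapped. Against that change the CDK19 effect was called in the MED10 line under TMM (0.70 ± 0.17, adjusted p = 0.00432; 2.61% of all genes) and not on the spike-in scale (0.40 ± 0.19, adjusted p = 0.163). In the MED28 line the same difference was 0.38 ± 0.19 (adjusted p = 0.413) and 0.52 ± 0.17 under TMM (adjusted p = 0.111), and it was not called in the other 6 Mediator lines on either scale. How much of the CDK19 rise dTAG7 gives without a tag was not resolved by 3 libraries per group.

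CDK8, the paralog of CDK19, was called in no Mediator line on either scale, with changes from -0.48 ± 0.27 in the MED10 line to 0.08 ± 0.26 in the MED31 line. CCNC (chr6:99542380-99568973, minus strand), the gene of the cyclin that activates CDK8 and CDK19, fell. In the MED6 line it was at 102, 95.4 and 105 CPM with DMSO and 55.8, 67.2 and 71.9 CPM with dTAG7, and in the MED14 line at 74, 95.3 and 95.3 CPM and then at 43.8, 41.6 and 42.1 CPM. Treated and DMSO libraries lay apart in both lines. The falls were 0.64 ± 0.13 (adjusted p = 0.000483) and 1.05 ± 0.14 (adjusted p = 1.5e-09). Both were called under TMM (-0.37 ± 0.10 and -0.36 ± 0.11). On the spike-in scale both were called without each library in turn, and the TMM calls were not refitted in this way.

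MED13, which joins the kinase module to the core, was called higher under TMM in the MED10 line (0.38 ± 0.11) and the MED14 line (0.42 ± 0.11), while on the spike-in scale it was 0.19 and -0.27 there without a call. Its paralog MED13L fell in the MED14 line (-0.67 ± 0.11) and the MED6 line (-0.30 ± 0.11) and was not called in any Mediator line under TMM. MED12 fell in the same lines (-0.79 ± 0.16 and -0.55 ± 0.16), also without a TMM call. In the MED6 line the MED13L and MED12 values were -0.20 (adjusted p = 0.313) and -0.28 (adjusted p = 0.263) without dTAG7 replicate A, and for MED13L leaving out DMSO replicate A (adjusted p = 0.148) or B (adjusted p = 0.0986) also ended the call.

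**Figure D3:**
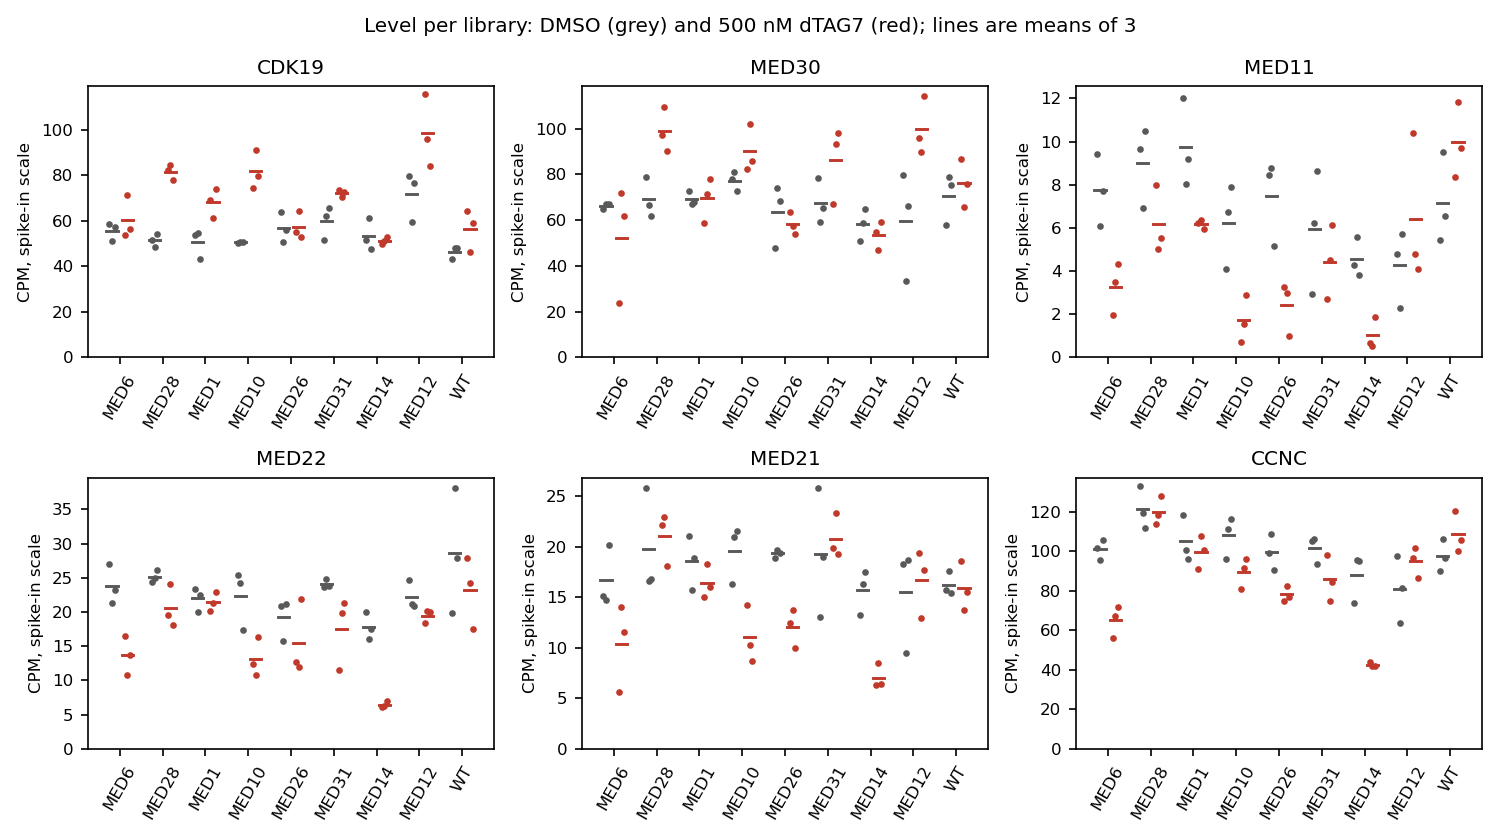
Level (CPM, spike-in scale) of CDK19, MED30, MED11, MED22, MED21 and CCNC in each library of the 8 Mediator lines and wild-type cells (WT), with DMSO in grey and 500 nM dTAG7 in red; bars are means of 3. CDK19 lies higher with dTAG7 in the MED28, MED10 and MED12 lines, and MED11, MED22, MED21 and CCNC lie lower in the MED6, MED10 and MED14 lines; the CCNC change in the MED10 line was not called.

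The calls were also counted by module. In the 7 lines other than MED14, which is alone in its class, own-module members were called lower in 3 of 57 cases and higher in 1. Members of other modules were called lower in 12 of 160 cases and higher in 3. The lines that gave these calls had 18.4% (MED6), 19% (MED10) and 2.88% (MED26) of all genes called lower, and 2.71% (MED10), 0.775% (MED28) and 1.57% (MED12) called higher. The own-module calls were MED11 and MED22 in the MED6 line, MED21 in the MED10 line and CDK19 in the MED12 line. Under TMM they were 1 lower and 2 higher of 57 cases, and 3 lower and 6 higher of 160 for other modules. In the lines that gave the TMM calls, 3.66% (MED6), 10% (MED10) and 1.4% (MED26) of all genes were called lower under TMM. Called higher were 2.89% (MED6), 2.09% (MED28), 8.06% (MED10) and 3.06% (MED12). In the MED28 line the other head genes had a median of 0.04 and in the MED31 line the other middle genes one of -0.07. These cases share libraries and are not independent, and the difference between the shares was not tested.

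Averaged over the 8 Mediator lines, dTAG7 lowered 14 members and raised 1, beside 46.9% of all genes called lower and 6.05% called higher. The lowest were MED11 (-0.97 ± 0.14), MED22 (-0.54 ± 0.08), MED21 (-0.41 ± 0.09), CCNC (-0.30 ± 0.05) and MED10 (-0.29 ± 0.06), and CDK19 was the member raised (0.32 ± 0.05). Under TMM the same 5 were called lower (-0.81, -0.36, -0.24, -0.14 and -0.12), beside 21.5% of all genes lower and 20.5% higher. The 8 called higher under TMM were CDK19 (0.49 ± 0.04), MED30 (0.32 ± 0.06), MED15, MED29, MED13 (0.21 ± 0.04), MED23, MED14 and MED6. With the wild-type change subtracted, a contrast chosen after seeing the data, 4 members were lower (17.1% of all genes were called either way), namely MED11 (-1.48 ± 0.36), MED9 (-0.59 ± 0.21), MED24 (-0.55 ± 0.19) and CCNC (-0.46 ± 0.14), and CDK19 was not called (0.04 ± 0.15, adjusted p = 0.898). Under TMM that contrast called MED11 (-1.23 ± 0.34) and 4.24% of all genes, and gave 0.30 ± 0.13 for CDK19 (adjusted p = 0.205). Without the MED14 line the average lowered 8 members and raised 1, beside 28.9% and 6.5% of all genes.

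The effect of dTAG7 differed among the 8 lines for 18 members on the spike-in scale, beside 46.2% of all genes, and for 4 under TMM, beside 12.4%. The lowest p-values on the spike-in scale were those of CCNC (adjusted p = 3.47e-06), MED8 (3.96e-05), MED13L (9.29e-05), MED1 (0.000191) and MED12 (0.00171), each with its lowest effect in the MED14 line. MED28, CDK19, CCNC and MED30 differed on both scales. MED30 had its lowest and highest effects in the MED6 and MED12 lines, where MED6 dTAG7 replicate A and MED12 DMSO replicate B stood apart. Of the 256 pairs of member and line, 26 had a dTAG7 effect called different from that in wild-type cells, 20 of them lower in the MED14 line, where 57.1% of all genes were called lower. Under TMM 5 pairs were called, 3 in the MED14 line and 2 in the MED10 line, beside 16.5% and 7.42% of all genes called either way.

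With CDK9 degraded or BET proteins degraded all 32 members fell, as 95.3% of all genes did in the CDK9 line, 97.1% with dBET6 and 96.2% with THAL-SNS-032. The members' median change was -3.40 in the CDK9 line, -4.15 with dBET6 and -3.0 with THAL-SNS-032, beside -2.93, -3.67 and -2.86 for all genes. Members of the head and middle had lower medians than those of the tail and kinase module. In the CDK9 line these were -4.04 (head), -4.10 (middle), -2.75 (tail) and -2.82 (kinase module). With dBET6 they were -4.67, -4.38, -3.71 and -3.56, and with THAL-SNS-032 -3.40, -3.25, -2.63 and -2.65, in the same order.

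The order was seen under TMM too. There 6 of 11 head and 7 of 9 middle genes were called lower in the CDK9 line, against 0 of 5 tail and 0 of 6 kinase module genes, beside 27% of all genes. With dBET6 the counts lower were 7 of 11, 6 of 9, 1 of 5 and 0 of 6, beside 23.2% of all genes. With THAL-SNS-032 they were 4 of 11, 3 of 9, 0 of 5 and 0 of 6, beside 16%. These medians and counts follow the scheme given at the start. The other scheme counts MED27 to MED30 in the tail and MED19 in the head, and its counts are not given here. Under TMM the means of MED27 to MED30 in the CDK9 line were 163, 137, 23.9 and 69.3 CPM with DMSO. With dTAG7 they were 67.6, 143, 15.9 and 53.6 CPM, so the tail counts can depend on the scheme. The difference between modules was not tested, and dBET6 and THAL-SNS-032, given at different doses, share their DMSO libraries.

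MED20, a head gene, had the largest fall of the CDK9 line among members with at least 5 CPM over the 6 libraries. It was at 37.6, 41.7 and 31.7 CPM with DMSO and 1.3, 1.36 and 1.42 CPM with dTAG7 (-4.73 ± 0.38; TMM -1.91 ± 0.37). MED19, of the middle, went from 47.8, 49.1 and 52.8 CPM to 1.3, 3.16 and 3.13 CPM (-4.55 ± 0.26; TMM -1.74 ± 0.26). With dBET6 MED21 had the largest fall by the same rule, from 15.7, 17.6 and 15.4 CPM to 0.191, 0.622 and 0 CPM (-5.54 ± 0.43; TMM -2.11 ± 0.53). With THAL-SNS-032 that was MED22, from 19.8, 38.1 and 27.8 CPM to 2.21, 1.83 and 1.1 CPM (-3.97 ± 0.29; TMM -1.16 ± 0.32). MED11, below that level, had 1 count with dBET6 against 56 with DMSO, a ratio of DMSO to dBET6 of 112 on the spike-in scale (95% counting interval 19.3 to 4504, which covers counting error only).

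MED13L fell less than most. It was at 187, 153 and 167 CPM with DMSO in the CDK9 line and 27, 24.9 and 37 CPM with dTAG7, and at 162, 182 and 184 CPM in wild-type cells against 20.6, 19.9 and 22.6 CPM with dBET6 and 39.2, 35.6 and 35.3 CPM with THAL-SNS-032. Its changes were -2.50 ± 0.12, -3.07 ± 0.12 and -2.26 ± 0.11. TMM called it higher in all 3 comparisons (0.33 ± 0.11, 0.52 ± 0.11 and 0.56 ± 0.10). Higher under TMM were otherwise MED14 in the CDK9 line (0.43 ± 0.15) and MED13 with THAL-SNS-032 (0.50 ± 0.13). Of all genes 21.1%, 18.2% and 14.1% were called higher. CDK19, which rose in Mediator lines, was called in none of the 3 under TMM (0.08, 0.35 and 0.34).

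**Figure D4:**
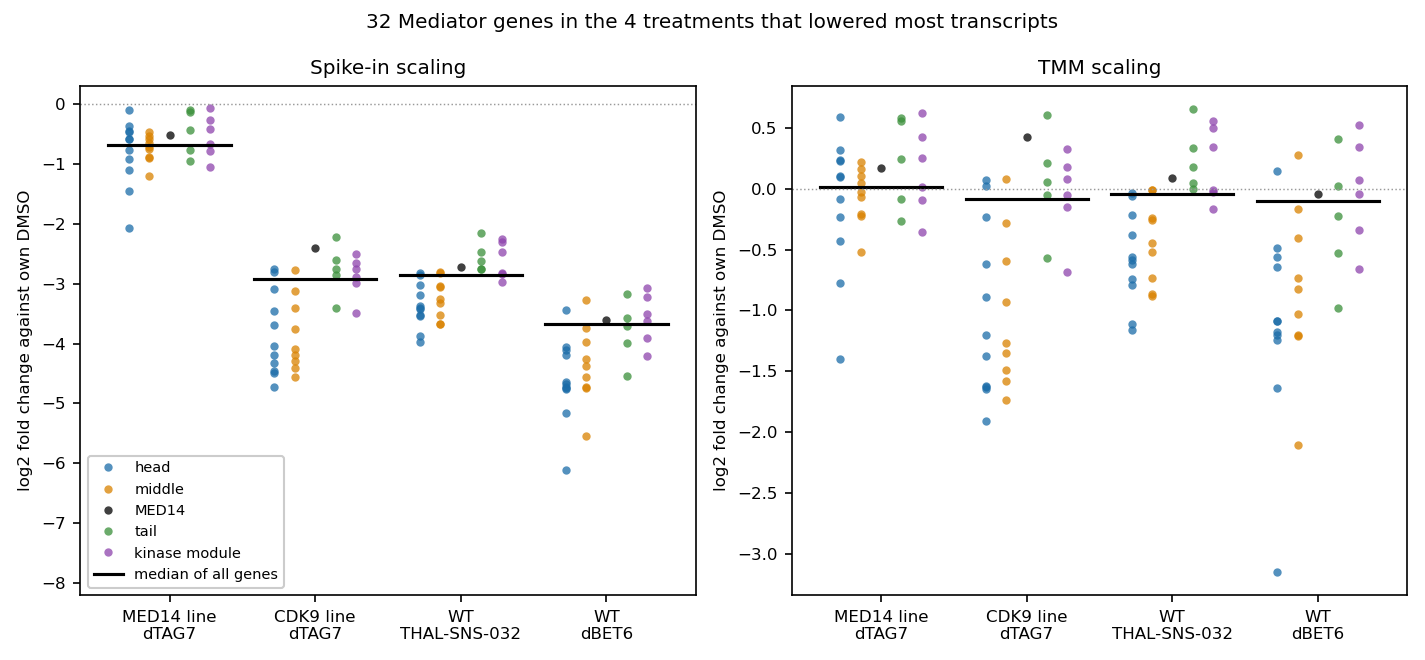
Log2 fold change of the 32 subunit genes, coloured by module, in the MED14 and CDK9 lines with dTAG7 and in wild-type cells (WT) with THAL-SNS-032 or dBET6, against DMSO, on the spike-in scale at left and under TMM at right; black lines are medians of all genes tested. In the CDK9 line and with both compounds head and middle genes (blue, orange) reach lower than tail and kinase module genes (green, purple).

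With DMSO, between 0 and 4 of the 32 members were called in a tagged line against wild-type cells. Beyond the tagged genes themselves, 0 members were called in the MED1, MED6, MED10, MED26, MED28 and CDK9 lines with DMSO. Of these the MED6, MED1 and CDK9 lines had no member called by edgeR or by DESeq2, and at an unadjusted p under 0.05 edgeR had 1 lower, 1 higher and 2 lower members. Shares of all genes called either way were 0.408% in the MED1 line, 0.408% in MED6, 0.32% in MED10, 0.919% in MED26, 1.94% in MED28 and 1.73% in CDK9. With shares this low, 0 calls among the other members does not set the subunit genes apart from genes at large. The changes of the tagged genes at baseline were -1.23 ± 0.13 for MED28, -0.72 ± 0.16 for MED10, 0.70 ± 0.18 for MED26 and -1.30 ± 0.19 for MED14. In the direction of the tagged gene 0.0799% of all genes were called in the MED28 line, 0.192% in MED10 and 0.527% in MED26. The MED10 call was lost without any of 5 single libraries (adjusted p = 0.069 to 0.197), and the MED26 call without any of 4, the values being 0.56 (adjusted p = 0.422) without MED26 DMSO replicate A and 0.52 (adjusted p = 0.408) without wild-type DMSO replicate C.

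In the MED14 line with DMSO, where 8.98% of all genes were lower than in wild-type cells, 3 other members were lower. MED23 was at 25.2, 23.1 and 20.7 CPM against 33.8, 39 and 37.3 CPM (-0.67 ± 0.17), MED12 at 48.8, 52.3 and 46.8 CPM against 72.6, 71.8 and 69.7 CPM (-0.53 ± 0.15) and MED22 at 20, 16 and 17.5 CPM against 19.8, 38.1 and 27.8 CPM (-0.66 ± 0.21). MED23 and MED12 did not overlap between the groups and MED22 did. TMM called none of these 3 lower (3.21% of all genes), and it called CDK19 higher (0.41 ± 0.12, adjusted p = 0.0275; 2.64% of all genes). MED22 lost its call without any of 4 single libraries, wild-type DMSO replicate B giving the smallest value (-0.42, adjusted p = 0.331), and MED12 without any of 4 (adjusted p = 0.0511 to 0.0722). MED23 kept its call without each library in turn.

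In the MED12 line with DMSO CDK19 was higher than in wild-type cells, at 79.5, 59.4 and 76.5 CPM against 43.3, 48 and 47.8 CPM (0.63 ± 0.14, adjusted p = 0.000564; TMM 0.66 ± 0.12). It stayed called without each library in turn, at 0.55 to 0.75. MED4, a middle gene, was lower there (-0.39 ± 0.12; TMM -0.35 ± 0.10), a call lost without MED12 DMSO replicate B (-0.35, adjusted p = 0.0805) or wild-type DMSO replicate B or C (adjusted p = 0.154 and 0.0541). Of all genes 6.13% were called higher and 4.42% lower in that comparison, and 7.79% and 5.7% under TMM. In the MED31 line with DMSO MED13 was at 145, 130 and 133 CPM against 104, 98.9 and 91.7 CPM (0.47 ± 0.13; TMM 0.39 ± 0.11) and MED25 at 15.9, 12.1 and 10 CPM against 7.84, 6.66 and 6.22 CPM (0.86 ± 0.27, not called under TMM), with 6% of all genes called higher. The MED13 call was lost without MED31 DMSO replicate A or wild-type DMSO replicate C (adjusted p = 0.0769 and 0.0961) and the MED25 call without any library but MED31 DMSO replicate C (adjusted p = 0.0563 to 0.226). TMM called MED28 lower (-0.27 ± 0.08), with 4.1% of all genes lower and 5.28% higher. The 9 baselines share the wild-type DMSO libraries.

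Genes of the general transcription factors and RNA polymerase II subunits that meet Mediator at promoters were looked at beside the members, from a list of 43 of which 39 were tested. On the spike-in scale 28 fell and 1 rose in the MED14 line (median -0.60), beside 63.3% of all genes lower and 1.7% higher. On that scale 4 fell and 1 rose in the MED6 line, 1 and 2 in MED10, 1 and 1 in MED26, 0 and 1 in MED28 and 0 and 2 in MED31. In these 5 lines 18.4%, 19%, 2.88%, 4.07% and 2.61% of all genes were called lower, in the same order. Called higher were 0.775%, 2.71%, 0.264%, 0.775% and 0.495%. Under TMM the direction in the MED14 line turned, with 2 lower and 8 higher (median 0.10), beside 16.6% and 13.4% of all genes. TMM gave 2 lower and 3 higher in the MED6 line, 1 and 6 in MED10, 1 and 2 in MED26, 0 and 1 in MED28, 0 and 3 in MED31 and 0 and 2 in MED12 (GTF2B and MNAT1). The shares of all genes called lower under TMM were 3.66%, 10%, 1.4%, 4.34%, 3.02% and 5.7% in that order. Those called higher were 2.89%, 8.06%, 0.97%, 2.09%, 1.46% and 3.06%. POLR2A, the gene of the largest polymerase subunit, was called higher in 6 lines on both scales. TAF5, a TFIID subunit, fell in the MED14 line (-1.61 ± 0.16; TMM -0.92), the MED6 line (-0.67 ± 0.14; TMM -0.39) and the MED26 line (-0.59 ± 0.14; TMM -0.45), and GTF2H1 of TFIIH was the gene that fell in the MED10 line (-0.86 ± 0.17; TMM -0.66). TAF3, another TFIID subunit, rose in the MED10 line (0.37 ± 0.11; TMM 0.58), and GTF2A1 of TFIIA in the MED31 line (0.66; TMM 0.71). In the MED14 line TAF3 was lower on the spike-in scale (-0.34 ± 0.11) and higher under TMM (0.35). The genes of this list were not refitted with libraries left out. The TAF5 values of the MED6 and MED26 lines thus include MED6 dTAG7 replicate A and MED26 DMSO replicate A, which stood apart.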

How the data were processed

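The deposited table holds read counts per Ensembl gene and spike-in, not normalized by the authors, for 66 libraries. STAR 2.5.2b, HTSeq 0.6.0, bedtools 2.26.0 and hg38 are named in the submitters' processing notes; the annotation and strand setting of the counting are not given in the sources used here. The authors' loess-normalized table was not used. Symbols and positions came from GENCODE 29 and module membership from textbook structure.

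Genes were tested with the edgeR 4.0.16 quasi-likelihood test (R 4.3.3) in 1 model of all 22 groups with 44 residual degrees of freedom, scaled by the spike-in totals (12515 genes passed the filter on low counts) or by TMM (12892 genes), with Benjamini-Hochberg adjustment over all genes. The test of differences among lines was an F test of the 8 dTAG7 effects. Tested on simulated data for the MED14 comparison (11684 genes), the script recovered 76.6% of 2-fold and 28.0% of 1.5-fold changes and called 0.0522% of unchanged genes. In the simulation 200 genes changed, every group otherwise had the MED14 DMSO levels, and no library was made to stand apart. In the data 65% of all genes were called in the MED14 line, so these rates cannot be carried over to it. Spike-in totals of 10950 to 72684 counts gave a median SD of the log2 ratio of endogenous to spike-in counts of 0.0581 within groups. Replicates of a group differed by more than sampling noise, with a chi-square per degree of freedom of 1.34 to 20.2.

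Any member could be named. Values per library were chosen from tagged genes and from up to 3 largest called changes each way in a comparison (mean of at least 5 CPM). Members called in 3 or more lines and the paralog pairs were also open to this choice. The text does not give such values for every one of these, among them CDK8, and MED1 and MED12 in their own lines. The members, lists and modules were chosen with earlier results of these data known. Alternatives were TMM, median-of-ratios scaling, DESeq2 1.42.0, no filter, own libraries only, a replicate block and each library left out. Fits with libraries left out were made on the spike-in scale only. Leaving out the libraries that stood apart, and the contrast against the wild-type change, were chosen after seeing the data.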

Additional observations from a re-analysis of the deposited data

Results flagged for a closer look

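The effect of dTAG7 differed among the 8 Mediator lines under both scalings for 4 members, by an F test over the lines. The adjusted p-values on the spike-in scale were 3.47e-06 for CCNC, 0.00262 for CDK19, 0.0121 for MED28 and 0.0277 for MED30. CCNC ran from -1.05 in the MED14 line to 0.22 in the MED12 line, and CDK19 from -0.06 in the MED14 line to 0.69 in the MED10 line. Under TMM CDK19 ran from 0.17 in the MED26 line to 0.89 in the MED10 line (adjusted p = 0.0147). CCNC ran from -0.37 in the MED6 line to 0.19 in the MED12 line (adjusted p = 0.0276). MED28 ran from -0.38 in its own line to 0.22 in the MED31 line (adjusted p = 0.0103). MED30 ran from -0.13 in the MED6 line to 0.74 in the MED12 line (adjusted p = 0.0421). On the spike-in scale MED30 was at 23.5 CPM in MED6 dTAG7 replicate A, beside 71.6 and 61.9 CPM in the others of that group. It was at 33.3 CPM in MED12 DMSO replicate B, beside 79.5 and 66.2 CPM. Both libraries stood apart, and the F test of MED30 is not given without them.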

How the results depend on the processing

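Under TMM the members called were 2 in the MED6 line, 3 in MED28, 4 in MED10, 10 in MED14, 15 in CDK9, 15 with dBET6, 9 with THAL-SNS-032 and 2 in the MED14 baseline, with 4 for the difference among lines and 5 pairs against the wild-type change; median-of-ratios scaling gave 2, 3, 4, 9, 14, 16, 9, 2, 4 and 5. Without the libraries that stood apart the MED6 line had 3, MED28 3, MED31 1, MED12 0 and the MED28, MED26 and CDK9 baselines 3, 0 and 1. Fitted on own libraries only, MED6 had 0, MED28 3, MED10 11, MED26 3, MED12 0 and the MED26, MED31 and MED12 baselines 0, 1 and 0. DESeq2 gave 2 in the MED28 line and 0 in the MED26 baseline. The cause was not tested.

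Leaving out 1 library at a time gave 3 to 10 members in the MED6 line, 2 to 5 in MED10, 0 to 1 in MED26, 21 to 23 in MED14 and 0 to 3 in MED12. The baselines ranged over 0 to 1 for MED10, 0 to 1 for MED26, 0 to 2 for MED31, 2 to 3 for MED14, 1 to 4 for MED12 and 0 to 1 for CDK9, the mean over lines over 15 to 17, the difference among lines over 13 to 21 and the pairs against wild-type cells over 20 to 30. Of 78 calls of single members 51 remained in each such fit. For the CDK9 line, dBET6 and THAL-SNS-032 only the 3 largest falls each (at least 5 CPM) were among the 78. Those that remained were 32 of 52 treated calls, 4 of 11 baseline calls and 15 of 15 calls of the mean over lines. By Mediator line they were 19 of 23 in MED14, 1 of 9 in MED6 and 2 of 7 in MED10. In MED28 they were 1 of 1, in MED12 0 of 2 and in MED26 0 of 1.

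Calls of the MED14 line that turned direction under TMM were MED13L (0.014), MED14 (0.17), MED17 (0.23), MED28 (0.10), MED31 (0.16), MED4 (0.10), MED6 (0.11), MED7 (0.22) and MED9 (0.043), and under median-of-ratios scaling MED13L (0.051), MED14 (0.20), MED17 (0.26), MED19 (0.0093), MED28 (0.13), MED31 (0.20), MED4 (0.14), MED6 (0.14), MED7 (0.25) and MED9 (0.079). Over the 8 lines MED13L (0.030 and 0.039) and MED27 (0.020 and 0.030) turned under the same scalings. The replicate letters did not pair the libraries: correlations of same-letter deviations ran from -0.46 to 0.16, and 7 of 36 libraries correlated best with their own letter. With a replicate block each count was the same as without, for example 9 in the MED6 line, 7 in MED10 and 23 in MED14. In the simulated MED14 comparison 28.0% of 1.5-fold changes were recovered, and other comparisons were not simulated.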
